A study of Mus musculus with 11 samples.

Results

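The C/EBP family (CCAAT/enhancer-binding proteins) was represented by 6 of the 34728 genes in the RNA-seq table of sorted mouse β-cells, namely *Cebpa*, *Cebpb*, *Cebpd*, *Cebpe*, *Cebpg* and *Cebpz*. They were taken by family name, and *Cebpd* was singled out because it was low in diabetic and not in insulin-treated mutants, so its values are described here without a test. RNA was measured in 11 libraries from 8-week-old male mice of the strain C57BL/6 x 129SV. The 3 WT libraries came from RIP-Cre; Raptor+/+; Rosa26 GFP mice, in which Cre recombinase is driven by the rat insulin promoter and switches on a GFP lineage mark. The 4 diabetic βRapKOGFP libraries came from mice that carried the same Cre and GFP alleles and lacked Raptor, the scaffold subunit of mTORC1, in the cells where Cre had acted. The 4 euglycemic βRapKOGFP libraries came from the same genotype with an insulin-releasing implant worn for 4 weeks. GFP-positive cells were sorted from dispersed islets, so every group holds Cre-expressing, GFP-marked cells, and a sort of this kind leaves some other islet and pancreas cells. The labels do not say whether each library came from its own mouse, so p-values measure the spread between these libraries.

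C/EBP proteins are basic leucine zipper (bZIP) transcription factors that bind DNA as dimers with each other or with related bZIP proteins. C/EBPα, C/EBPβ and C/EBPδ are known for steering adipocyte and liver gene programs and acute-phase responses, and C/EBPε for late granulocyte maturation. C/EBPγ lacks a strong activation domain and pairs with other members, and *Cebpz* shares the family's name but encodes a nucleolar protein of ribosome assembly without a bZIP domain. In β-cells, C/EBPβ is known as an endoplasmic reticulum stress-responsive repressor of insulin transcription, and its translation from alternative start codons is known to depend on mTORC1.

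A stretch of coding sequence is shown to let the bZIP members be read side by side, with *Cebpz* as the member that has no such domain. The *Cebpb* reference window of 90 bases was the one that best matched *Cebpa*, *Cebpe* and *Cebpg*. Below it stands the best in-frame match in each of these members and in *Cebpz*, from GENCODE vM21 transcripts of GRCm38 (mm10), with bases identical to *Cebpb* in capitals. *Cebpb* itself is in lower case, and each window lies within one exon.
Cebpb: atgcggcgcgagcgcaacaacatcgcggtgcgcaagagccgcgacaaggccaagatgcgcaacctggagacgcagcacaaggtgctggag
Cebpa: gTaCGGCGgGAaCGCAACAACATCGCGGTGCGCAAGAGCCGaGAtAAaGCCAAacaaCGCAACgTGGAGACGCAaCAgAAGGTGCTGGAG
Cebpe: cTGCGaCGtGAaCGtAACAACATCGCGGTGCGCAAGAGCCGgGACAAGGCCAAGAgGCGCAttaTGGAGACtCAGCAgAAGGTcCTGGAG
Cebpg: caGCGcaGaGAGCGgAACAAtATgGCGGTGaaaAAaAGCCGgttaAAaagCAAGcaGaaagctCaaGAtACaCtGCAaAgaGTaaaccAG
Cebpz: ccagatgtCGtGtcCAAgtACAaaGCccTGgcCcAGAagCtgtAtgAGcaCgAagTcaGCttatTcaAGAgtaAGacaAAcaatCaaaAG
*Cebpe* matched *Cebpb* at 77 of the 90 bases (85.6%), *Cebpa* at 76 (84.4%) and *Cebpg* at 50 (55.6%). The best window of *Cebpz*, which had no part in choosing the reference window, matched at 37 bases (41.1%).

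The windows lie at chr2:167689700-167689789 (*Cebpb*, plus strand), chr7:35120280-35120369 (*Cebpa*, plus), chr14:54710671-54710760 (*Cebpe*, minus), chr7:35050549-35050638 (*Cebpg*, minus) and chr17:78935540-78935629 (*Cebpz*, minus). The coding sequences run to 268 codons in *Cebpd*, 296 in *Cebpb*, 359 in *Cebpa*, 281 in *Cebpe*, 150 in *Cebpg* and 1052 in *Cebpz*. *Cebpa* and *Cebpg* are neighbours on chromosome 7. *Cebpa*, *Cebpb* and *Cebpd* are annotated as 1 exon block each.

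The start codons of *Cebpb* are shown because its mRNA is translated into long forms (from the first ATG, and LAP from the second) and a short form (LIP) that lacks the activation domain, and one FPKM value covers all of them. These 3 start codons in frame are shown with the ATG in capitals, on chromosome 2, plus strand of GRCm38.
Cebpb codon 1, chr2:167689022-167689036: ATGcaccgcctgctg
Cebpb codon 22, chr2:167689073-167689099: gcctttagacccATGgaagtggccaac
Cebpb codon 152, chr2:167689463-167689489: gacgcgcccgccATGgcggccggtttc
Translation from codon 152 leaves 145 codons. The RNA values below therefore say how much *Cebpb* message there was, not which protein was made from it.

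Values are FPKM, fragments scaled by transcript length and by the mapped fragments of the library, which allow levels to be compared between genes of different length. The depth was inferred as 9506156 to 16659222 fragments per library, since the deposited values carry no totals. Differences are in log2(FPKM + 1) from limma, fitted to the 11251 genes that reached 1 FPKM in 3 or more libraries. A gene was called when its Benjamini-Hochberg adjusted p did not exceed 0.05 and its level changed by 1.5-fold or more. Of the 6 members, 4 passed the FPKM minimum. Raptor (*Rptor*) had an FPKM of 0.948 to 1.79 in WT, 0.485 to 0.937 in diabetic and 0.423 to 0.623 in euglycemic libraries. An exact permutation test, two-sided, gave p = 0.0571 (diabetic against WT) and 0.0286 (euglycemic against WT), of which 0.0286 is the smallest p 3 against 4 libraries allow. Summed FPKM of 8 β-cell markers, the insulin genes among them, was 116568 to 206198. Acinar transcripts stood out, with the summed FPKM of 7 acinar markers at 1738, 816 and 905 in diabetic replicates 1, 2 and 3 and at 607 and 3051 in euglycemic replicates 1 and 4, against 1.298 to 28.4 in the other 6 libraries. Diabetic replicate 1 also listed 25711 genes above 0, against 13095 to 17329 elsewhere.

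*Cebpb* was the most abundant member in every library except euglycemic replicate 4, where *Cebpd* exceeded it. Its mean FPKM over all 11 libraries was 149, rank 198 of the genes in the table, and it did not differ between the groups beyond the spread of the libraries. *Cebpd* averaged 78.1 FPKM (rank 473), *Cebpz* 16.0 (rank 2437) and *Cebpg* 10.02 (rank 3543), and *Cebpa* (0.259) and *Cebpe* (0.00441) were close to or at 0. In RNA of sorted populations, fewer cells of a type and less RNA per cell cannot be told apart. The order *Cebpb*, *Cebpd*, *Cebpz*, *Cebpg* held for the overall means. Neighbours in this order were not always apart. *Cebpb* and *Cebpd* overlapped in euglycemic libraries, *Cebpd* and *Cebpz* in diabetic libraries, and *Cebpz* and *Cebpg* in WT and euglycemic libraries.

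**Figure D1:**
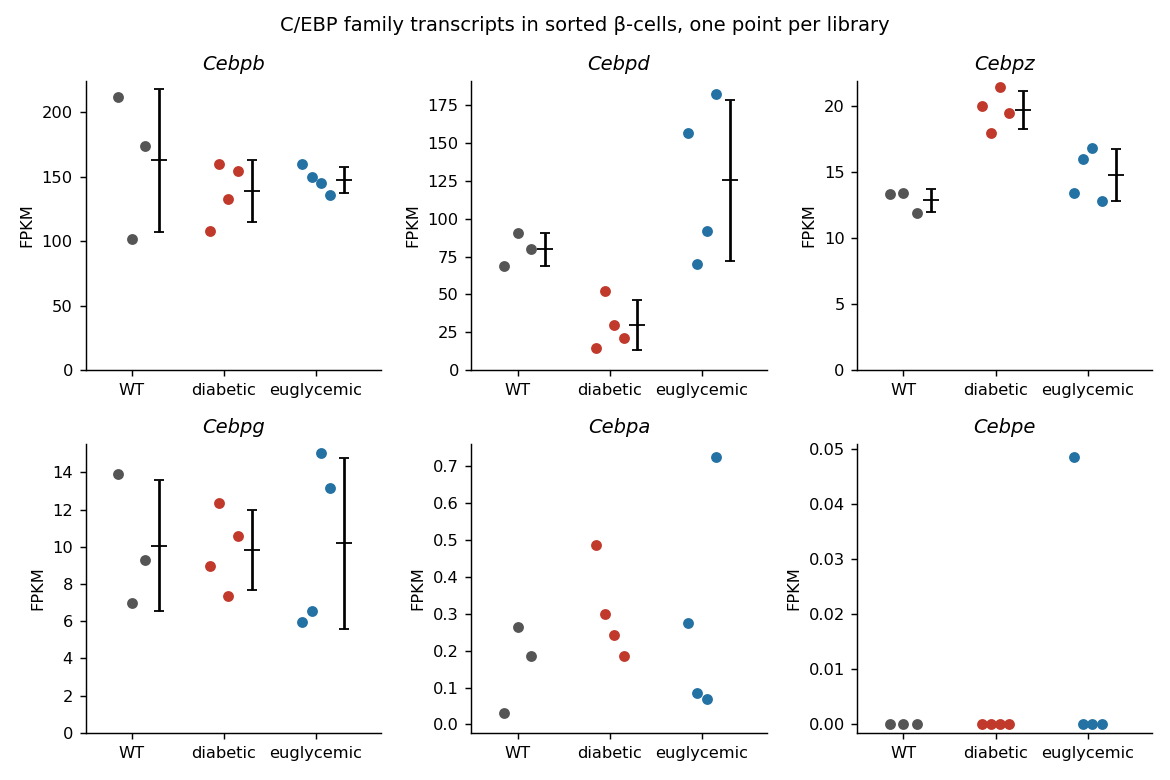
FPKM of each C/EBP member, 1 point per library, in WT (n = 3), diabetic (n = 4) and euglycemic (n = 4) βRapKOGFP libraries, with mean ± SD bars for the 4 members that passed the FPKM minimum and none for *Cebpa* and *Cebpe*. The 4 diabetic *Cebpd* points (14.9 to 52.6) lie below all others, and the 4 diabetic *Cebpz* points (18.0 to 21.4) lie above all others.

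*Cebpd*, which encodes C/EBPδ, an early inducible member that responds to cytokines and glucocorticoids in many tissues, was the member that moved most. WT libraries held 68.7, 90.2 and 80.3 FPKM (replicates 1 to 3). Diabetic libraries held 14.9, 52.6, 29.9 and 21.3 FPKM. Every diabetic library was below every WT library, and their means were 29.7 ± 16.5 (SD, n = 4) and 79.7 ± 10.8 (SD, n = 3). The log2 difference was -1.54 (SE 0.39), which placed *Cebpd* 40th from the bottom of the 11251 genes tested.

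Euglycemic libraries held 157, 70.1, 91.8 and 182 FPKM of *Cebpd*, a mean of 125 ± 53.0 (SD, n = 4). All 4 exceeded every diabetic library. Replicate 2 lay within the WT range and the other 3 above it. The difference between diabetic and euglycemic libraries was -2.09 (SE 0.37), and only 1 of the genes tested had a lower value in that comparison. Against WT, the euglycemic difference was 0.55 (SE 0.39). These contrasts chose *Cebpd*, so they are given as description only. For reference, groups did not overlap with the diabetic side lower in 6.88% of genes tested against WT and in 7.42% against euglycemic libraries, and in 1.40% (157 genes) every diabetic library lay below all libraries of both other groups.

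The high euglycemic *Cebpd* values of 157 and 182 FPKM belonged to replicates 1 and 4, the libraries with acinar sums of 607 and 3051. Among the 6 libraries with acinar sums under 50, *Cebpd* was 68.7 to 90.2 FPKM in the 3 WT libraries, 21.3 in diabetic replicate 4 and 70.1 and 91.8 in euglycemic replicates 2 and 3. In that subset the differences were -1.85 (diabetic against WT), -1.87 (diabetic against euglycemic) and 0.02 (euglycemic against WT). This subset holds 1 diabetic library, and the part of acinar transcripts in the *Cebpd* values was not tested. Summed FPKM of 7 macrophage markers was 33.3 to 41.7 in WT, 74.6 to 197 in diabetic and 55.3 to 124 in euglycemic libraries, most of it in each library from 1 gene, *C1qa* (33.3 to 41.4, 74.3 to 196 and 53.8 to 124 FPKM). Of these 7, *Csf1r* and *Adgre1* were 0.0718 FPKM or less in WT and euglycemic libraries and reached 1.79 and 1.13 in diabetic replicate 1. *Cd68*, of the same list, was 0 to 1.23 FPKM in WT, 0 to 2.52 in diabetic and 0 to 1.53 in euglycemic libraries. *Lyz2* is given below with the myeloid genes. Summed FPKM of 6 endothelial markers was 0.0487 to 1.46, 7.02 to 45.9 and 0.0436 to 2.07. Summed FPKM of 6 stellate and fibroblast markers was at most 0.496 in WT and 0.245 in euglycemic libraries, and 0.563 to 15.8 in diabetic libraries. Summed FPKM of 4 duct markers was 58.1 to 71.6 in WT, 57.3 to 86.1 in diabetic and 95.8 to 131 in euglycemic libraries. None of the markers in these lists was at 0 in all libraries, and the part of these cells in the *Cebpd* values was not tested. Summed FPKM of 14 immediate early genes was highest in euglycemic replicate 1 (6421) and among the lowest in euglycemic replicate 4 (1849), the pair with the highest *Cebpd*. How these genes relate to the *Cebpd* values was not tested.

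**Figure D2:**
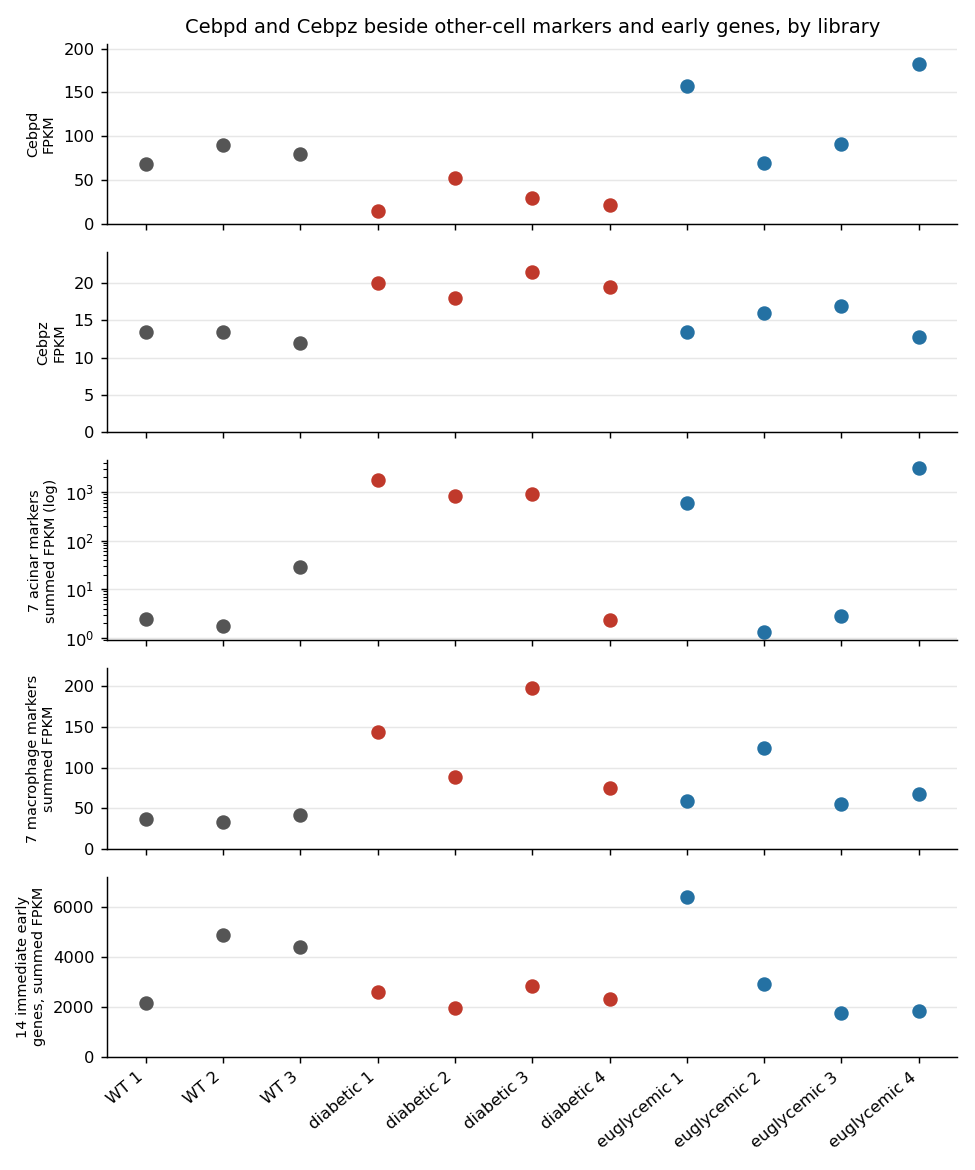
*Cebpd* and *Cebpz* FPKM by library, above the summed FPKM of 7 acinar markers (log axis), 7 macrophage markers and 14 immediate early genes, coloured by group (WT grey, diabetic red, euglycemic blue). Diabetic replicate 4 had 21.3 FPKM of *Cebpd* with an acinar sum of 2.30, and the 2 euglycemic libraries with the most *Cebpd* had acinar sums of 607 and 3051.

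*Cebpb*, which encodes C/EBPβ, overlapped between the groups. WT libraries held 212, 102 and 174 FPKM, diabetic libraries 108, 160, 133 and 154, and euglycemic libraries 160, 150, 145 and 136. All libraries of both mutant groups fell within the WT range. The difference was -0.18 (SE 0.25, 95% interval -0.71 to 0.35, limma adjusted p = 0.843) for diabetic against WT, -0.08 (-0.61 to 0.45, limma adjusted p = 0.909) for euglycemic against WT and -0.10 (-0.59 to 0.39, limma adjusted p = 0.823) for diabetic against euglycemic. These intervals still include differences as large as -0.71, so equal levels are not shown. Direction turned positive under some scalings and in some subsets of libraries, with values between -0.48 and 0.22 over all comparisons and alternatives.

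*Cebpg*, whose product pairs with other C/EBP and ATF4-type proteins, also showed no separation. Its FPKM was 13.9, 6.98 and 9.28 in WT, 8.98, 12.4, 7.37 and 10.6 in diabetic, and 5.95, 6.56, 15.1 and 13.2 in euglycemic libraries. Euglycemic libraries fell into a low and a high pair. The differences were -0.01, -0.03 and 0.03 (SE 0.30 to 0.32, limma adjusted p of 0.966 to 0.997) for diabetic against WT, euglycemic against WT and diabetic against euglycemic, and each changed sign under some of the alternatives.

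*Cebpz* was the second member whose diabetic libraries stood apart. WT libraries held 13.4, 13.4 and 11.9 FPKM and diabetic libraries 20.0, 18.0, 21.4 and 19.4. Every diabetic library was above every WT library. Diabetic exceeded WT by 0.58 (SE 0.17, 95% interval 0.21 to 0.94, 1.49-fold), with an unadjusted p of 0.00439 and a limma adjusted p of 0.157, so *Cebpz* was not called. Groups did not overlap with the diabetic side higher in 6.67% of genes tested.

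Euglycemic libraries held 13.4, 16.0, 16.8 and 12.8 FPKM of *Cebpz*, between the other groups and overlapping WT. Diabetic exceeded euglycemic by 0.40 (SE 0.16, 95% interval 0.06 to 0.73, limma adjusted p = 0.187), again with no overlap, which 6.85% of genes showed in this direction. Euglycemic exceeded WT by 0.18 (SE 0.17, limma adjusted p = 0.658). In 1.58% of genes tested (178) every diabetic library lay above all libraries of both other groups. The diabetic difference against WT was 0.56 without the libraries rich in acinar transcripts (limma adjusted p = 0.685, 6 libraries). With limma's library weights it was 0.61 and *Cebpz* was called (limma adjusted p = 0.0190). That setting called 551 of the 11251 genes tested in this comparison, against 109 in the main fit.

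**Figure D3:**
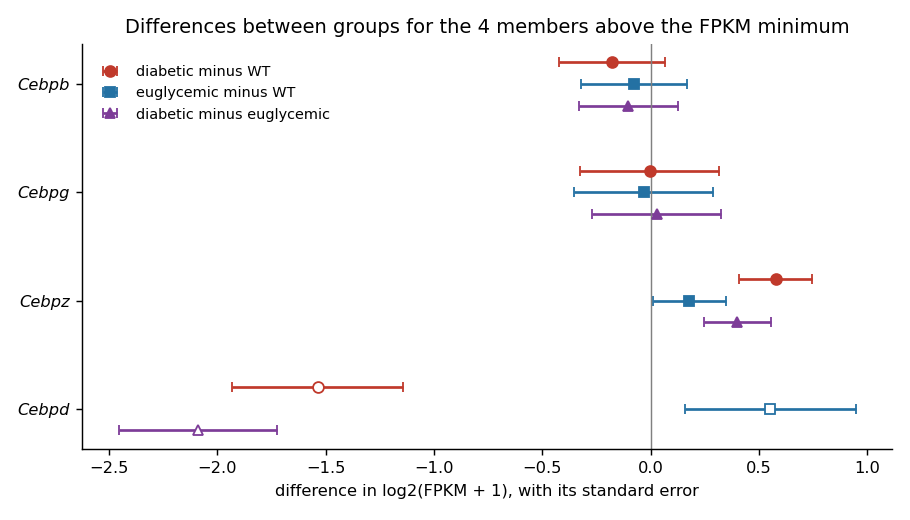
Differences in log2(FPKM + 1) with their standard errors for *Cebpb*, *Cebpg*, *Cebpz* and *Cebpd* in the 3 comparisons, with open symbols for *Cebpd*, which was chosen on them. *Cebpb* and *Cebpg* lie near 0 (-0.18 to 0.03), *Cebpz* at 0.58 and 0.40 in the diabetic comparisons and *Cebpd* at -1.54 and -2.09.

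Of the 3 members tested apart from *Cebpd*, 0 were called for diabetic against WT, where 0.969% of all genes tested were called. The same count was 0 for euglycemic against WT (background 0.551%) and 0 for diabetic against euglycemic (background 0.00889%). At an unadjusted p under 0.05, 1 member (*Cebpz*) passed in each comparison with the diabetic group and 0 in euglycemic against WT, beside 11.9%, 20.6% and 13.9% of all genes tested for diabetic against WT, diabetic against euglycemic and euglycemic against WT.

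*Cebpa* and *Cebpe*, the members known from adipocytes, liver and granulocytes, were near the limit of detection. *Cebpa* was 0.0304 to 0.264 FPKM in WT, 0.185 to 0.485 in diabetic and 0.0695 to 0.725 in euglycemic libraries, which corresponds to about 1.10 to 18.2 fragments. The groups overlapped, and exact permutation tests, two-sided, gave p = 0.229, 0.657 and 0.857 for diabetic against WT, euglycemic against WT and diabetic against euglycemic. *Cebpe* was listed at 0 in 10 libraries and at 0.0485 FPKM, about 1 fragment, in euglycemic replicate 1. Of 5 neutrophil markers, *S100a8*, *Ly6g* and *Ltf* were listed at 0 in every library, and of 4 adipocyte markers *Plin1* was. The others left traces. All 5 neutrophil markers together came to 0.457 FPKM for diabetic replicate 1 and to 0 elsewhere. The 4 adipocyte markers together came to 0.541 FPKM for diabetic replicate 1, 0.221 for euglycemic replicate 3 and at most 0.0798 elsewhere.

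As a share of the summed family FPKM, WT libraries were 31.3% *Cebpd* (SD 10.2, n = 3), diabetic libraries 14.3% (SD 5.51, n = 4) and euglycemic libraries 40.6% (SD 11.03, n = 4). In the same order *Cebpb* made up 59.96%, 70.2% and 50.7%, and *Cebpz* 4.98%, 10.3% and 5.14%. The *Cebpd* to *Cebpb* ratio was 0.324 to 0.884 for WT, 0.138 to 0.328 for diabetic and 0.468 to 1.34 for euglycemic libraries. WT replicate 1 (0.324) and diabetic replicate 2 (0.328) overlapped on this ratio, although they did not on *Cebpd* itself, since WT replicate 1 had the most *Cebpb*. The diabetic and euglycemic ranges did not overlap. Shares and ratios contain *Cebpd* and are descriptions.

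**Figure D4:**
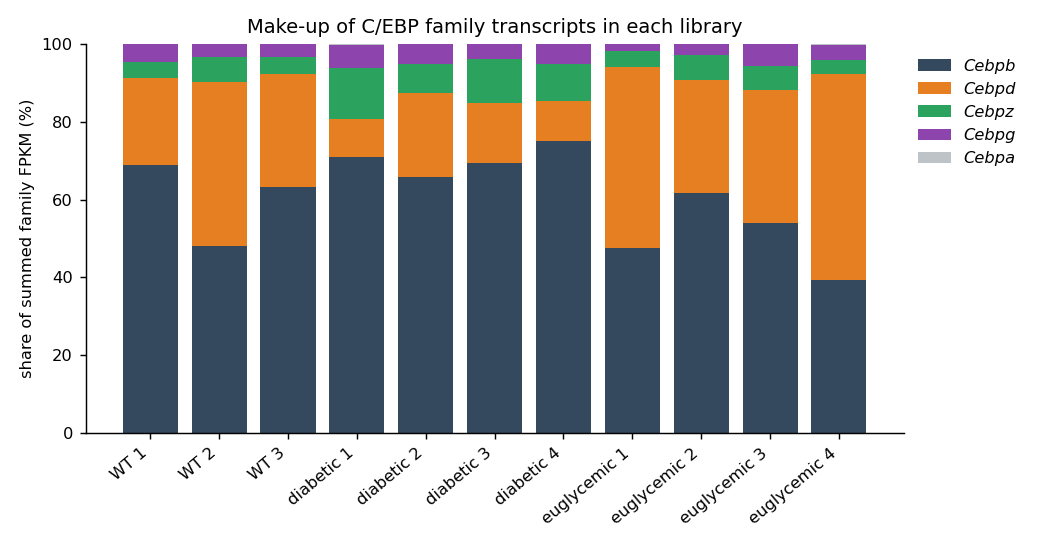
Share of each member in the summed FPKM of the family, 1 bar per library (*Cebpe*, listed at 0 in 10 of 11 libraries, is not drawn). *Cebpd* takes 9.79 to 21.6% in diabetic bars and 28.9 to 52.9% in euglycemic bars, and *Cebpz* is widest in diabetic bars.

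Counting by strand is not stated in the sources used here, so reads from overlapping genes on opposite strands may not be told apart. *Cebpd* shares 562 exon bases (15% of its exon length) with *Spidr*, which was 2.09 to 7.08 FPKM, and *Cebpb* shares 312 (20.7%) with *Tmem189*, at 1.70 to 4.70 FPKM. Both partners were below the member they overlap in every library. *Spidr* came nearest in diabetic replicate 1, where it was 6.06 and *Cebpd* 14.9 FPKM. *Cebpz* shares 171 bases (3.67%) with *Cebpzos*, which was 17.6 to 31.1 FPKM in WT, 18.1 to 25.6 in diabetic and 31.1 to 36.4 in euglycemic libraries. *Cebpzos* was lower in diabetic than in euglycemic libraries by value (-0.63, SE 0.20, limma adjusted p = 0.137), the opposite sign to *Cebpz*. *Cebpa* and *Cebpg* overlap predicted genes (*Gm45091*, *Gm44836*, *Gm45095*) over 1.93% of exon length at most.

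For *Cebpd*, the 5 genes most alike over the 11 libraries, among 5603 with a mean FPKM of at least 5, were *Vegfb* (Pearson r 0.95, Spearman rho 0.93), *Iah1* (0.91, 0.82), *Ctdspl* (0.91, 0.87), *Dpp7* (0.89, 0.91) and *Tgds* (0.89, 0.88). *Vegfb*, a vascular endothelial growth factor, was 21.9 to 22.5 FPKM in WT, 16.4 to 21.2 in diabetic and 23.3 to 30.6 in euglycemic libraries, the same ordering of groups over a much narrower range. Without the 2 libraries farthest from the *Cebpd* median (diabetic replicates 1 and 4) these coefficients were 0.77 to 0.88. The points share the 3 groups, so a group difference alone gives such values. For *Cebpb* the 5 were *Clk3* (0.89), *Gpatch3* (0.81), *Gm12976* (0.81), *Cbr3* (0.79) and *Oaf* (0.79). Once WT replicates 1 and 2 were left out, these coefficients were 0.41 (*Oaf*) to 0.75 (*Gpatch3*). An absolute r of at least 0.8 was found for 1.04% of the genes with *Cebpd* and 0.0535% with *Cebpb*.

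Among 12 bZIP partners (8 tested), which dimerize with or compete for C/EBP sites, 1 was called lower in each βRapKOGFP group against WT, where 0.498% (diabetic) and 0.196% (euglycemic) of all genes tested were called lower. This was *Dbp*, a clock-controlled PAR bZIP activator, at 26.9, 18.1 and 41.7 FPKM in WT, 7.77, 3.39, 6.48 and 9.36 in diabetic and 7.62, 7.09, 8.13 and 2.51 in euglycemic libraries. All mutant libraries lay below all WT libraries, which 6.88% (diabetic) and 5.02% (euglycemic) of genes showed. The differences were -1.94 (SE 0.38, limma adjusted p = 0.0357) and -2.04 (SE 0.38, limma adjusted p = 0.0344), and 0.11 between the mutant groups (limma adjusted p = 0.895). The calls held in 9 (diabetic) and 7 (euglycemic) of 21 alternatives. The diabetic call was lost without any 1 of WT replicates 1 to 3 or diabetic replicates 1 to 3 (-2.22 to -1.64, limma adjusted p of 0.0645 to 0.168). The euglycemic call was lost without any 1 of WT replicates 2 and 3, diabetic replicates 1 and 3 or euglycemic replicates 1 to 3 (-2.33 to -1.75, limma adjusted p of 0.0507 to 0.233). Both were also lost with the acinar covariate (-1.55 and -1.80, limma adjusted p = 0.155 and 0.0746) and without the libraries rich in acinar transcripts (-1.45 and -1.72), where 1 diabetic library is left. *Ddit3*, which encodes CHOP, the stress-induced dimer partner of C/EBPβ, was 90.4 to 288 FPKM in WT, 85.1 to 214 in diabetic and 73.7 to 178 in euglycemic libraries, with limma adjusted p of 0.772 to 0.982.

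Genes of C/EBP protein turnover and translation were not called in any comparison (6 and 12 tested). With 0.969%, 0.551% and 0.00889% of all genes called in the 3 comparisons, a count of 0 in lists of 6 to 14 genes is at the background, here and in the lists that follow. *Trib1*, which recruits the COP1 ubiquitin ligase to C/EBPα, was 15.6 to 33.6 FPKM in diabetic and 9.75 to 15.2 in euglycemic libraries (0.84, SE 0.30, limma adjusted p = 0.164), and *Trib2* differed by 0.70 (SE 0.22, limma adjusted p = 0.143). For turnover genes the medians were 0.18, -0.12 and 0.30 for diabetic against WT, euglycemic against WT and diabetic against euglycemic, beside 0.01, -0.01 and 0.01 over all genes tested. *Eif2ak3*, which encodes PERK, was 7.81 to 12.9 FPKM in WT, 16.2 to 25.1 in diabetic and 6.39 to 12.8 in euglycemic libraries. Every diabetic library was above all others, as in 1.58% of genes tested, with differences of 0.85 (SE 0.25, limma adjusted p = 0.154) against WT and 1.09 (SE 0.23, limma adjusted p = 0.122) against euglycemic. *Eif4ebp1*, an mTORC1 substrate gene, spanned 27.4 to 289 FPKM with overlap of all groups. The translation medians were 0.07, 0.03 and 0.13.

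Inputs that induce *Cebpd* and *Cebpb* were examined next. Of 12 IL-6 and STAT3 genes tested, 0 were called in any comparison, with medians of -0.02, -0.21 and 0.08. *Il6st*, the shared gp130 receptor chain, was 1.13 to 1.55 FPKM in WT, 1.12 to 1.81 in diabetic and 0.392 to 0.843 in euglycemic libraries (diabetic minus euglycemic 0.69, SE 0.18, limma adjusted p = 0.123). *Bcl3* overlapped in all comparisons. Of 10 glucocorticoid response genes, 0 were called, with medians of -0.55, -0.16 and 0.08. *Mt2*, a metallothionein, ran from 51.3 to 757 FPKM with WT replicate 1 highest, and *Per1* from 0.382 to 7.85.

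Of 14 immediate early genes 0 were called, with medians of -0.52, -0.51 and -0.06. *Jun*, for instance, was 754 FPKM in euglycemic replicate 1 and 40.2 in euglycemic replicate 4, the pair that shared the highest *Cebpd*, and *Fosb* was 40.7 and 5.30. The relation of these genes to *Cebpd* was not tested.

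Known C/EBP targets of the inflammatory, adipogenic and myeloid programs were mostly below the FPKM minimum. Of 18 acute-phase and inflammatory genes 7 were tested and 0 called, with medians of 0.85, 0.34 and 0.22. *Cd14*, a monocyte coreceptor, was 0.321 to 0.694 FPKM in WT, 1.01 to 7.33 in diabetic and 1.03 to 2.50 in euglycemic libraries (diabetic minus WT 1.43, SE 0.37, limma adjusted p = 0.104). *Fgb* was listed at 0 in WT and reached 8.31 in euglycemic replicate 3. Of 10 adipogenic and metabolic genes 2 were tested, and *Lpl* was called lower in diabetic against WT (limma adjusted p = 0.0376), as were 0.498% of all genes tested.

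*Lpl*, which encodes lipoprotein lipase, was 31.0, 21.7 and 17.9 FPKM in WT, 10.6, 8.85, 8.24 and 9.53 in diabetic, and 18.3, 8.98, 15.2 and 15.3 in euglycemic libraries. Diabetic libraries were all below WT (-1.22, SE 0.25), as in 6.88% of genes tested, and euglycemic libraries overlapped both. The call held in 8 of 21 alternatives. It was lost without any 1 WT or diabetic library or euglycemic replicate 3 (-1.39 to -1.01, limma adjusted p of 0.0563 to 0.133). It was also lost with the acinar covariate (-1.35, limma adjusted p = 0.0767) and without the libraries rich in acinar transcripts (-1.18), where 1 diabetic library is left and 1 gene in all was called. Of 10 myeloid genes only *Lyz2* was tested, and its 59.4 and 13.2 FPKM in diabetic replicates 1 and 2 stood against 3.07 or less in the others.

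*Gcg*, which encodes glucagon, the hormone of α-cells, was 734 to 2116 FPKM in WT, 3432 to 14073 in diabetic and 4093 to 22921 in euglycemic libraries. Its rise was called in euglycemic against WT, as were rises in 0.356% of genes tested (3.07, SE 0.60, limma adjusted p = 0.0389) and not in diabetic against WT (2.60, SE 0.60, limma adjusted p = 0.0658), and diabetic and euglycemic differed by -0.47 (SE 0.55, limma adjusted p = 0.649). The call held in 8 of 21 alternatives. It held with the acinar covariate (3.41, limma adjusted p = 0.0317). It was lost without the libraries rich in acinar transcripts (3.60, limma adjusted p = 0.1004), with no filter (limma adjusted p = 0.293), with only the groups compared (0.0825), in TPM (0.0522) and with a pseudocount of 0.1 (0.0540). It was also lost without any 1 of WT replicates 2 and 3, diabetic replicates 1 and 2 or euglycemic replicates 2 to 4 (2.64 to 3.54, limma adjusted p of 0.0526 to 0.242). Markers of other islet cells are given beside it. Summed FPKM of 2 δ-cell markers was 1150.3 to 2472 in WT, 4870.2 to 12077 in diabetic and 4775 to 13791 in euglycemic libraries. Summed FPKM of 2 PP-cell markers was 513 to 1107, 3674 to 12979.7 and 4984 to 14238 in the same order. The part of these cells in the *Gcg* values was not tested.

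**Figure D5:**
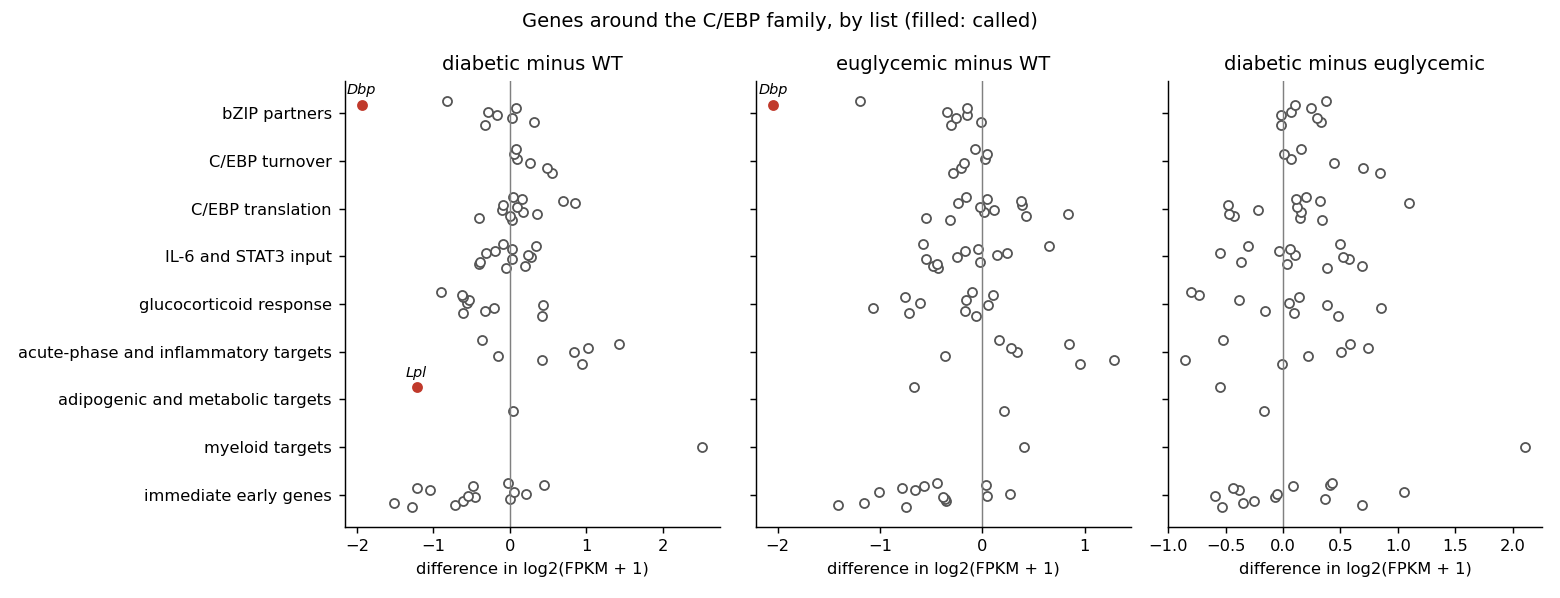
Differences in log2(FPKM + 1) of all tested genes in the 9 lists around the C/EBP family, 1 panel per comparison and 1 row per list, with called genes filled and named. Called genes are *Dbp* (-1.94 and -2.04) and *Lpl* (-1.22), and no gene of these lists is called between the mutant groups.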

How the data were processed

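RNA-seq of GFP-sorted β-cells was used from 11 libraries (3 WT, 4 diabetic, 4 euglycemic). The authors deposited one table of FPKM values per gene and library. The study's methods describe poly-A libraries from a TruSeq RNA kit, read from both ends, with no mention of strand, mapped to mm10 with TopHat and quantified with Cufflinks, while the submitters' processing notes name HISAT2 2.0.4, StringTie 1.3.0 and edgeR, and which of these made the table is not stated. The columns named KI were taken as the insulin-treated mutants. Of 34745 entries, 34267 were matched to a symbol and 478 were kept under their own ID, and for repeated symbols the entry with the highest mean was kept (17 left out).

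Depth was inferred from single-exon genes (92.7 to 97.3% of low values were whole steps at a tolerance of 0.02). Fits used limma 3.58.1 (R 4.3.3; lmFit, then trended eBayes), where one model of all libraries took log2(FPKM + 1), over the 11251 genes that reached 1 FPKM in 3 or more libraries, and the fit was tested on simulated data. Fold changes on this scale understate the change of low genes. Genes below the minimum were compared by exact permutation tests. Other steps used Python 3.11.15, pandas 2.3.3 and scipy 1.17.1.

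The genes named are the 6 members, *Rptor*, in each list every called gene or else the 2 with the largest difference, *Ddit3*, *Gcg*, the 5 genes most alike to *Cebpd* and to *Cebpb*, and genes overlapping a member. One gene, the list built on it and one sequence are not reported here. Members and lists were chosen with earlier results of these data known. Alternatives were the filter, pseudocount, TPM or median-of-ratios scaling, fits of just both groups compared, no trend, weights per library, a replicate block, leaving out each library, and, added after seeing the data, leaving out 5 libraries with acinar transcripts (sum of 50 FPKM or more) or an acinar covariate.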

Additional observations from a re-analysis of the deposited data

How the results depend on the processing

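*Cebpd*, whose direction its choice largely fixed, ranged over the 21 alternatives (-1.98 to -1.27 for diabetic against WT, 0.02 to 0.79 for euglycemic against WT, -2.41 to -1.82 for diabetic against euglycemic), and *Cebpz* kept its direction (0.52 to 0.69, 0.12 to 0.33, 0.23 to 0.53). The euglycemic excess of *Cebpd* over WT shrank to 0.02 without the 5 libraries with acinar transcripts. Library weights called 1 member in diabetic against WT (*Cebpz*, 0.61), where they called 551 of the 11251 genes tested. The other alternatives called 0 members in any comparison. *Cebpb* and *Cebpg* differences changed sign: for diabetic against WT *Cebpg* was 0.072 in TPM, 0.15 with library weights, 0.11 without the acinar libraries and 0.034 with the acinar covariate, and *Cebpb* was 0.047 with weights. For euglycemic against WT, *Cebpb* was 0.22 and *Cebpg* 0.0038 with weights, and *Cebpg* 0.043 without the acinar libraries. For diabetic against euglycemic, *Cebpb* was 0.017 in TPM and 0.067 without the acinar libraries. Leaving out single libraries gave *Cebpb* -0.48 to 0.042, -0.38 to 0.14 and -0.18 to 0.013, and *Cebpg* -0.22 to 0.23, -0.24 to 0.21 and -0.17 to 0.23. In TPM the median of all genes was 0.08, -0.06 and 0.14, against 0.01, -0.01 and 0.01 as deposited. The cause of these shifts was not tested.

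Counts of called genes over the whole table moved more. Diabetic against WT (109) gave 22 with no filter, 551 with weights, 1 without the acinar libraries, 48 with the acinar covariate and 23 to 209 without single libraries. Euglycemic against WT (62) gave 13 with no filter, 18 with only the groups compared, 2287 with weights, 6 without the acinar libraries, 36 with the covariate and 10 to 532 without single libraries, 532 being without WT replicate 1. Diabetic against euglycemic (1) gave 0 with no filter, with a pseudocount of 0.1, in TPM, with median-of-ratios scaling, without the acinar libraries and with the covariate, 6 with only the groups compared, 1212 with weights and 0 to 380 without single libraries.

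Whether replicate numbers pair the libraries is not stated. Deviations of same-numbered libraries correlated at -0.13 on average (10 pairs, -0.37 to 0.21), against 0.04 for others (-0.32 to 0.36). These ranges overlap, so they do not decide it. With the replicate block, 45, 20 and 0 genes were called, and the *Dbp* (limma adjusted p = 0.0770 and 0.102), *Lpl* (0.0562) and *Gcg* (0.121) calls were lost. Depth limits *Cebpa* and *Cebpe*, and the smallest p for 3 against 4 libraries is 0.0286.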
